A study of Mus musculus with 5 samples.

Results

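Kinesins are motor proteins that use ATP to walk along microtubules, and this account follows their genes in ribosome-bound RNA from podocytes of *Pfn1*-KO and control mice. The genes were chosen by name: protein-coding genes of GENCODE vM21, a catalogue of mouse genes, whose symbol is Kif followed directly by a digit. There are 39 such genes in the catalogue, 37 of which had values among the 21019 genes with values in the table, and *Kif2b* and *Kif28* were not analysed here. Of the 37, 36 are motors and *Kif1bp* is a kinesin-binding protein that carries the Kif name. By their known main role, 11 were grouped as mitotic kinesins, 13 as transport kinesins and 13 as other kinesins.

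In a dividing cell, mitotic kinesins push spindle poles apart, align chromosomes, shorten microtubule ends and build the midzone where the cell is cut. In a cell at rest, transport kinesins carry endosomes, lysosomes, mitochondria and ciliary cargo outward along microtubules. Podocytes, the cells that wrap glomerular capillaries with branched foot processes, seldom divide once mature, and their large primary processes hold bundled microtubules. The study asked what happens to podocytes that lose profilin1, the actin-monomer-binding protein made by *Pfn1*, and it followed cell cycle entry and faulty mitosis in them, which puts the balance of mitotic and transport kinesins in question.

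*Pfn1*-KO mice were homozygous for Pfn1 fl, an allele with loxP sites around exon 1 of *Pfn1*, and controls were Pfn1+/+. Both groups carried Pod-Cre, a Cre driven by a podocyte promoter, the Rosa-Dtr fl allele on a C57BL/6 background and a Cre-dependent GFP-tagged ribosomal protein, GFP-L10a, which marks ribosomes of cells that have expressed Pod-Cre. Ribosomes were pulled down from kidney cortex with antibodies to GFP (translating ribosome affinity purification, TRAP) at 3 weeks of age, and each of the 3 *Pfn1*-KO and 2 control samples pooled 3 mice. The sample labels speak of isolated podocytes, while the methods describe the pulldown. The libraries are called *Pfn1*-KO N2, N3 and N4 and control N1 and N3, after the column names of the table. Nothing in the labels ties a control to a *Pfn1*-KO sample, and p-values measure the spread between these pooled samples only.

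Several features of the whole table bear on every kinesin value below. Library sizes were alike, at 18186900 to 24871893 reads in the *Pfn1*-KO libraries and 22822635 to 23704366 in the controls. The number of genes above 0 was not alike, at 20435 to 20980 in the *Pfn1*-KO libraries and 6901 to 7528 in the controls. Protein-coding genes held 86.5%, 27.7% and 85.3% of the summed FPKM (read fragments scaled by gene length and library size) in *Pfn1*-KO N2, N3 and N4, against 14.1% and 16.3% in control N1 and N3. Of 10 genes that every cell uses, 4 were listed at 0 in control N3, so a kinesin at 0 in a control is given as listed at 0. *Pfn1* itself had 41.9, 17.2 and 27.8 FPKM in the *Pfn1*-KO libraries, against 13.6 and 11.8 FPKM in the controls (log2 difference 1.05, limma adjusted p = 0.123), and so was not lower as deposited in the libraries labelled *Pfn1*-KO. That difference lay below the median of 1.75 of all genes tested, and it was -0.36 after quantile normalisation (limma adjusted p = 0.595). The *Pfn1* value also counts reads of exons that the deletion leaves in place, and every direction below rests on the library labels. The 10 podocyte markers summed to 174 to 465 FPKM in the *Pfn1*-KO libraries and 28.0 to 54.0 FPKM in the controls. Markers of proximal tubule, a cell type that Pod-Cre should not mark, summed to 2386 to 6185 FPKM in the *Pfn1*-KO libraries and 184 to 382 FPKM in the controls, and 10 of 10 were called higher, against 70.1% of all genes tested. Immune markers summed to 17.3 to 247 FPKM in the *Pfn1*-KO libraries and to 524 and 4.13 FPKM in control N1 and N3. The part of these differences in the kinesin results was not tested, and in bulk RNA fewer cells of a type and less RNA per cell cannot be told apart.

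The test was limma on log2(FPKM + 1). It covered 14631 genes that reached 1 FPKM in 2 or more of the 5 samples, and a gene was called when its Benjamini-Hochberg adjusted p was under 0.05. On this scale 70.1% of all genes tested were called higher in *Pfn1*-KO and 2.13% were called lower. The median log2 difference of all genes tested was 1.75, so each kinesin is also given relative to that shift. The size of the shift depended on the scale: it was 0.98 after division by median-ratio size factors, -0.09 after quantile normalisation and 3.01 after rescaling to nuclear protein-coding genes. Quantile normalisation gives every library the same distribution of values, so a shift near 0 follows from the method. The cause of the shift was not tested.

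Of the 37 kinesin genes, 23 passed the filter on low values and 14 did not. The 14 were *Kif2c*, *Kif14*, *Kif18a* and *Kif18b* among mitotic kinesins, *Kif1a*, *Kif5a*, *Kif5c* and *Kif17* among transport kinesins, and *Kif6*, *Kif7*, *Kif19a*, *Kif21b*, *Kif24* and *Kif27* among the others. Of the 23 tested, 7 had less than 1 FPKM in both controls and passed through the *Pfn1*-KO libraries alone, so the direction of their difference, though not a call, was fixed by the filter. The 7 were *Kif4*, *Kif11*, *Kif20a*, *Kif22*, *Kif13a*, *Kif13b* and *Kif9*.

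Among the 23, 12 were called higher in *Pfn1*-KO (52.2%, against 70.1% of all genes tested), 2 were called lower (8.70%, against 2.13%) and 9 were not called. The median log2 difference of the 23 was 1.27, below the 1.75 of all genes tested, and 5 of the 23 lay above that median while 18 lay below it. Which genes lay above depended on the pseudocount. With 0.1, *Kif9*, *Kif4* and *Kif20a* (3.92, 4.26 and 4.37) rose above the 3.79 of all genes, and *Kif1bp*, *Kif1c* and *Kif12* (3.56, 2.86 and 3.23) fell below it. With the 4 genes at 0 in both controls whose reads are known set at a floor of 3 reads per control, the median of the 23 was 1.23. Without any filter, all 3 *Pfn1*-KO libraries were above both controls for 25 of the 37 genes, all 3 were below for 2, and 10 overlapped. Over all genes with values, 81.1% had all 3 *Pfn1*-KO libraries above both controls and 2.62% had all 3 below. The calls of higher depended on the scale. After quantile normalisation 1 kinesin was called higher and 4 were called lower, against 6.99% and 12.3% of all genes. That method gives all genes at 0 in a library a shared value. For a gene at 0 in both controls, a negative sign after it therefore does not show a fall. After median-ratio size factors 6 were called higher and 2 lower, against 46.8% and 6.18%. The 12 higher calls became 7 and the 2 lower calls became 1 without control N1, without *Pfn1*-KO N2 or without *Pfn1*-KO N4.

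**Figure D1:**
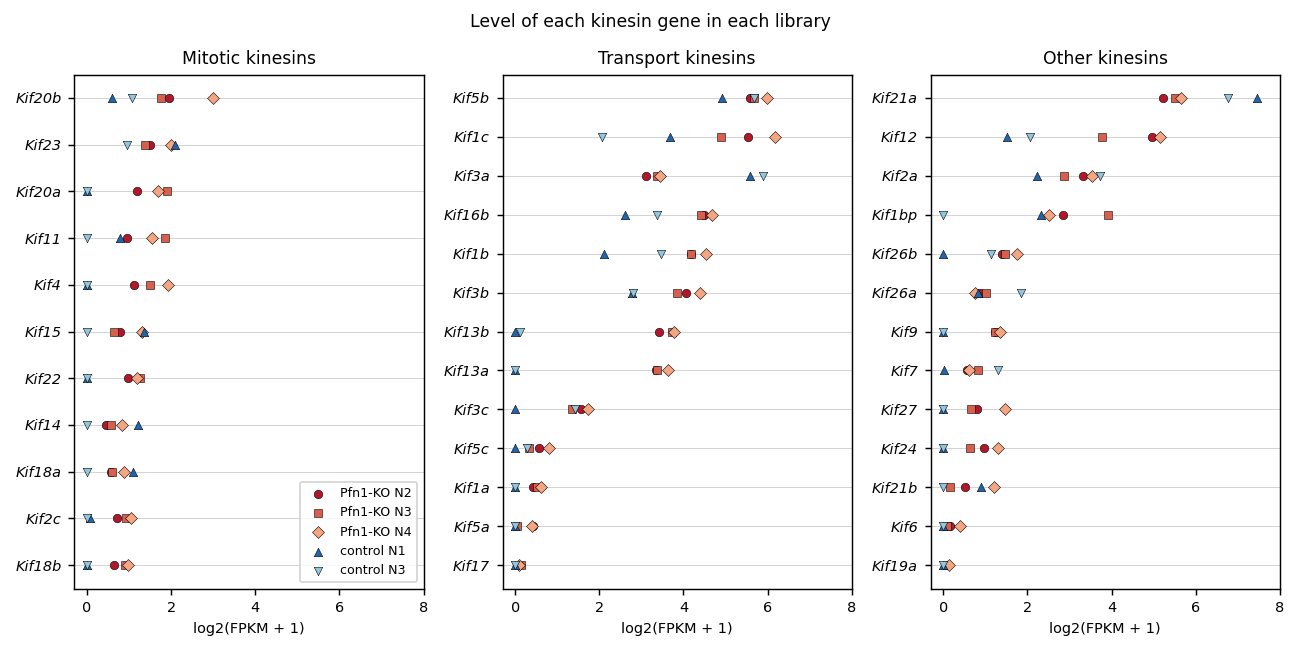
Level of each of the 37 kinesin genes in each library, on the horizontal axis as log2(FPKM + 1), in panels for mitotic, transport and other kinesins ordered by mean FPKM; warm colours are the 3 *Pfn1*-KO libraries and blue triangles the 2 controls. The controls lie to the right of every *Pfn1*-KO library for *Kif3a* and *Kif21a*, and 13 genes have both controls at 0.

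The make-up of the kinesin signal differed between groups. The 37 genes summed to 276, 263 and 370 FPKM in *Pfn1*-KO N2, N3 and N4, against 295 and 271 FPKM in control N1 and N3, and these ranges overlapped. Set against the nuclear protein-coding signal of the same library, the sum was 1453, 1769 and 2179 per 1000000 in the *Pfn1*-KO libraries, against 3995 and 3161 per 1000000 in the controls, and these did not. *Kif3a* and *Kif21a* together held 15.9%, 20.5% and 16.0% of that sum in the *Pfn1*-KO libraries, against 74.6% and 61.7% in the controls. The shares did not overlap, and since they are taken within a library they do not depend on how libraries are scaled to each other. The pair was chosen after the values were seen, as the kinesins called lower, so the lack of overlap is a description and not a test. In control N1 and N3, 17 and 20 of the 37 genes were listed at 0. How far these zeros raised the control shares was not tested. *Kif5b*, the ubiquitous heavy chain of conventional kinesin, led the kinesins in *Pfn1*-KO N2 and N3 with 17.0% and 19.1% of the sum, and *Kif1c* led in *Pfn1*-KO N4 with 19.2%. In control N1 and N3, *Kif21a* led with 58.8% and 40.1%. The other 35 kinesin genes summed to 232, 209 and 311 FPKM in the *Pfn1*-KO libraries, against 74.9 and 104 FPKM in the controls. Set against the nuclear protein-coding signal, those 35 made 1222, 1407 and 1831 per 1000000 in the *Pfn1*-KO libraries, against 1013 and 1212 per 1000000 in the controls.

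**Figure D2:**
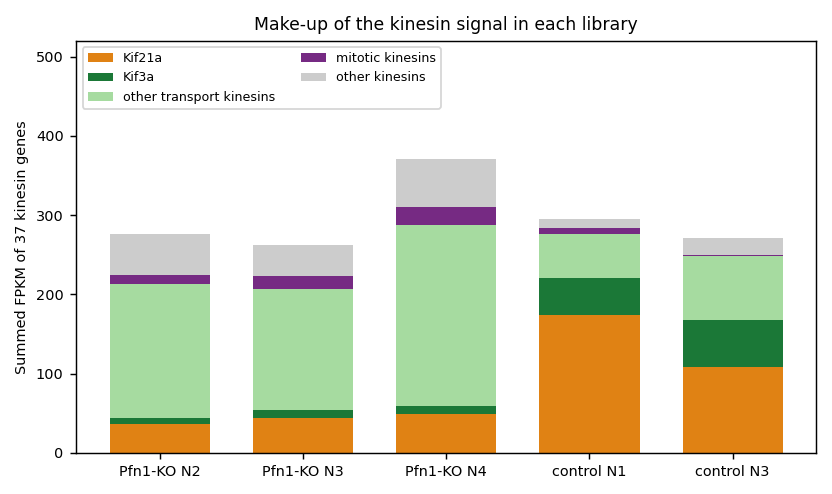
Summed FPKM of the 37 kinesin genes in each library, split into *Kif21a*, *Kif3a*, the other transport kinesins, the mitotic kinesins and the other kinesins. Bar heights overlap between groups, while *Kif21a* and *Kif3a*, the 2 kinesins called lower, together fill 74.6% and 61.7% of the control bars and 15.9% to 20.5% of the *Pfn1*-KO bars.

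The larger of the 2 falls was in a transport kinesin, a subunit of kinesin-2. Heterotrimeric kinesin-2 joins the motor subunits KIF3A and KIF3B to the accessory protein KAP3, made by *Kifap3*, and drives intraflagellar transport toward the tip of cilia. *Kif3a* (ENSMUSG00000018395.19, chr11:53567379-53601967 of GRCm38, plus strand) had 7.64, 9.40 and 9.83 FPKM in *Pfn1*-KO N2, N3 and N4, against 46.7 and 58.4 FPKM in control N1 and N3. All 3 *Pfn1*-KO libraries were low and close to each other, and the groups were far apart. These values rest on 633, 838 and 641 reads in the *Pfn1*-KO libraries and 3969 and 4783 reads in the controls. *Kif3a* fell by 2.43 on the log2(FPKM + 1) scale in *Pfn1*-KO (SE 0.47, limma adjusted p = 0.0049), which is -4.17 relative to the median of all genes tested. It was lower under 15 of 15 alternative settings and called lower under 14, and rescaling each library to a sum of 1000000 gave -1.77 (limma adjusted p = 0.115).

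The partner motor subunit did not follow it. *Kif3b* (chr2:153291413-153333390 of GRCm38, plus strand) had 15.7, 13.4 and 19.9 FPKM in the *Pfn1*-KO libraries, against 5.87 and 5.97 FPKM in the controls. It was called higher on the deposited scale (log2 difference 1.31, SE 0.44, limma adjusted p = 0.034), and it turned to -0.49 after quantile normalisation and -0.36 after median-ratio size factors. The call was lost without any 1 of *Pfn1*-KO N2, *Pfn1*-KO N4, control N1 and control N3, with limma adjusted p of 0.112, 0.123, 0.0576 and 0.0561 in turn. Within each library, *Kif3a* over *Kif3b* was 0.487, 0.700 and 0.493 in *Pfn1*-KO N2, N3 and N4, against 7.96 and 9.79 in control N1 and N3. This ratio, which no scaling between libraries can move and which was chosen after the values were seen, was lower in every *Pfn1*-KO library than in either control, with geometric means 16.0-fold apart. With 3 samples against 2, an exact two-sided permutation test cannot give less than 0.1.

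*Kifap3* had 15.1, 39.4 and 16.8 FPKM in the *Pfn1*-KO libraries, against 9.27 and 7.72 FPKM in the controls, and was not called (log2 difference 1.26, limma adjusted p = 0.084). The ratio of *Kif3a* to *Kifap3* was 0.506, 0.238 and 0.585 in the *Pfn1*-KO libraries, against 5.03 and 7.57 in the controls, and again the groups did not overlap. The ratio of *Kif3b* to *Kifap3* was 1.04, 0.340 and 1.19 in the *Pfn1*-KO libraries, against 0.633 and 0.773 in the controls, and these overlapped. *Kif3c*, which can pair with KIF3A in neurons, had 1.95, 1.56 and 2.30 FPKM in the *Pfn1*-KO libraries, against 0 and 1.67 FPKM in the controls, and was not called. The homodimeric kinesin-2 gene *Kif17* was near 0 everywhere, at 0.060 to 0.097 FPKM in the *Pfn1*-KO libraries and listed at 0 in both controls.

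**Figure D3:**
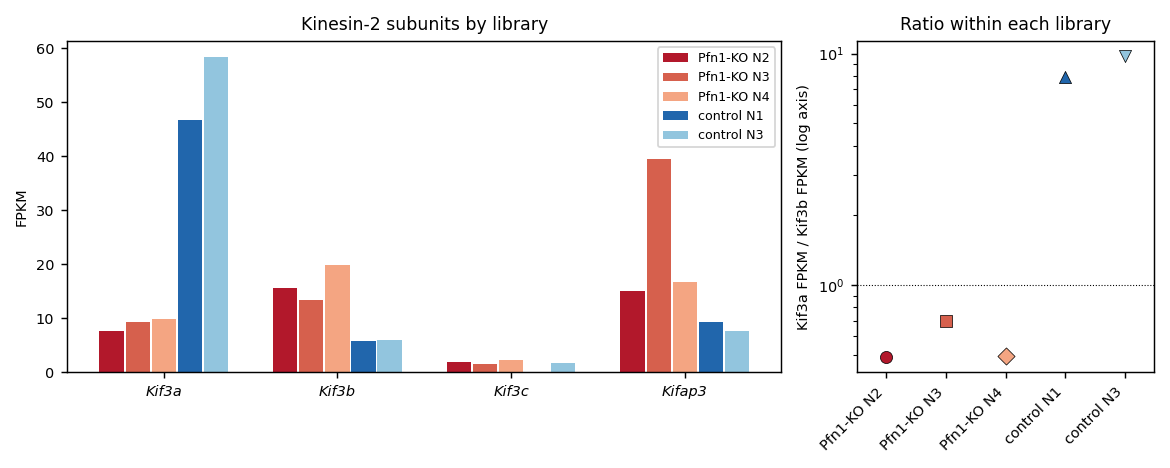
Left, FPKM of the kinesin-2 genes *Kif3a*, *Kif3b*, *Kif3c* and *Kifap3*, 1 bar per library; right, the ratio of *Kif3a* to *Kif3b* FPKM in each library on a log axis. The ratio is 0.487 to 0.700 in the 3 *Pfn1*-KO libraries and 7.96 to 9.79 in the 2 controls.

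Kinesin-3 motors carry endosomes and vesicles, and 5 of them, *Kif13a*, *Kif13b*, *Kif1c*, *Kif16b* and *Kif1b*, were tested and called higher as deposited, the last pair to turn negative under other scales below. *Kif13a* and *Kif13b* had less than 1 FPKM in both controls, so the filter fixed their direction. *Kif13a*, whose protein carries recycling endosomes, had 9.25, 9.32 and 11.5 FPKM in the *Pfn1*-KO libraries and was listed at 0 in both controls. *Kif13b*, named GAKIN in early work and a binding partner of the scaffold DLG1, had 9.77, 12.2 and 12.8 FPKM in the *Pfn1*-KO libraries, against 0 and 0.081 FPKM in the controls. For each gene the *Pfn1*-KO libraries were close to each other and far above the controls. In reads, *Kif13b* had 2939, 3948 and 3035 in the *Pfn1*-KO libraries, against 0 and 24 in the controls. The fitted log2 differences were 3.46 for *Kif13a* and 3.59 for *Kif13b* (limma adjusted p = 0.0015 for each), 1.71 and 1.85 above the median of all genes tested. With controls at or near 0, these fitted values depend on the pseudocount, and their tests are a description. *Kif13a* was called higher under 13 of the 13 alternatives in which it could be fitted, and *Kif13b* under 13 of 14, the exception being quantile normalisation (1.44, limma adjusted p = 0.072).

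*Kif1c*, which carries dense core vesicles and integrin-bearing endosomes, had 45.3, 28.8 and 71.0 FPKM in the *Pfn1*-KO libraries, against 11.9 and 3.17 FPKM in the controls. Its groups did not overlap but varied widely within themselves. It was called higher (log2 difference 2.66, SE 0.69, limma adjusted p = 0.015) and kept its sign under 15 of 15 alternatives but its call under only 9. The call was lost after median-ratio size factors (0.97, limma adjusted p = 0.230), quantile normalisation (1.21, limma adjusted p = 0.211) and rescaling to nuclear protein-coding genes (1.78, limma adjusted p = 0.113), by limma-voom (2.80, adjusted p = 0.073), and without *Pfn1*-KO N2 (limma adjusted p = 0.075) or N4 (limma adjusted p = 0.071). *Kif16b*, a motor of early endosomes, had 21.5, 20.4 and 24.7 FPKM in the *Pfn1*-KO libraries, against 5.10 and 9.39 FPKM in the controls. *Kif1b*, which carries mitochondria and synaptic vesicle precursors, had 17.0, 17.1 and 22.1 FPKM in the *Pfn1*-KO libraries, against 3.35 and 10.1 FPKM in the controls. Both were called higher as deposited, with log2 differences of 1.54 for *Kif16b* and 1.496 for *Kif1b*, but lay below the median of all genes and turned negative after quantile normalisation and after median-ratio size factors. Both calls were also lost without control N1, *Pfn1*-KO N2 or *Pfn1*-KO N4, and that of *Kif1b* without *Pfn1*-KO N3 (limma adjusted p of 0.0858 to 0.189 over these fits).

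The conventional kinesin heavy chain *Kif5b* had the highest mean level of the transport class and was not called. It had 46.9, 50.02 and 62.0 FPKM in the *Pfn1*-KO libraries, against 29.0 and 50.4 FPKM in the controls (log2 difference 0.45, SE 0.55, limma adjusted p = 0.476). The ranges overlapped, and its sign turned negative under 3 rescalings. Its neuronal relatives *Kif5a* and *Kif5c*, and the neuronal kinesin-3 gene *Kif1a*, did not exceed 0.747 FPKM in any *Pfn1*-KO library or 0.209 FPKM in any control. Of the 9 transport kinesins tested, 6 were called higher (66.7%, close to the 70.1% of all genes) and 1 lower, with a median log2 difference of 1.496. After quantile normalisation 1 was called higher, against 6.99% of all genes, and after median-ratio size factors 2 were, against 46.8%. The 6 fell to 3 without control N1 and to 2 without *Pfn1*-KO N2 or without *Pfn1*-KO N4.

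Genes of the cargo side of transport were mostly called higher. Of 14 light chain and adaptor genes tested, 13 were called higher (92.9%, against 70.1% of all genes; median log2 difference 2.58). After quantile normalisation 1 was called higher, against 6.99% of all genes, and the median of the list was 0.56. No gene of the list was called lower by limma, by limma-voom or at an unadjusted p under 0.05. Limma called 2.13% of all genes lower, a share at which a list of 14 may hold none. *Trak2*, which links kinesin to mitochondria, had the highest level, at 66.5, 36.2 and 70.1 FPKM in the *Pfn1*-KO libraries and 11.5 and 4.10 FPKM in the controls. The kinesin light chain gene *Klc4* had 13.8, 11.6 and 13.3 FPKM in the *Pfn1*-KO libraries and was listed at 0 in both controls. Of 22 genes of dynein and dynactin, which move cargo the other way, 17 were called higher (77.3%, against 70.1% of all genes) and 1 lower (4.55%, against 2.13%), with a median of 2.83. After quantile normalisation 4 were called higher and 1 lower, against 6.99% and 12.3% of all genes, and the median of the list was 0.59. The lower gene was *Dync1i2*, an intermediate chain of cytoplasmic dynein, with 16.2, 20.5 and 17.2 FPKM in the *Pfn1*-KO libraries, against 59.6 and 121 FPKM in the controls (log2 difference -2.19, limma adjusted p = 0.013). The dynein heavy chain gene *Dync1h1* had 44.7, 63.0 and 66.1 FPKM in the *Pfn1*-KO libraries, against 4.38 and 4.60 FPKM in the controls. As with *Kif3a* and *Kif3b*, subunits of a single motor complex moved in opposite directions as deposited.

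Intraflagellar transport genes, whose products ride on kinesin-2, were not called lower with *Kif3a* as deposited. Of 20 tested, 13 were called higher (65.0%, close to the 70.1% of all genes), with a median of 1.93, close to the 1.75 of all genes. None was called lower by limma or by limma-voom, and none was lower at an unadjusted p under 0.05. Limma called 2.13% of all genes lower, a share at which a list of 20 may hold none. After quantile normalisation 2 were called lower, against 12.3% of all genes, and the list's median was -0.27. *Ift52* had 14.6, 15.5 and 13.2 FPKM in the *Pfn1*-KO libraries, against 0.949 and 0.172 FPKM in the controls. *Ift74* was the only member with all *Pfn1*-KO libraries below both controls, at 10.2, 5.62 and 12.5 FPKM against 23.7 and 16.8 FPKM in the controls, and it was not called (log2 difference -1.07, limma adjusted p = 0.098).

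Mitotic kinesins were low in every library. The 11 genes summed to 11.8, 15.8 and 23.3 FPKM in *Pfn1*-KO N2, N3 and N4, against 8.56 and 2.04 FPKM in control N1 and N3. These sums did not overlap, though the spread within each group was wide. As a share of all kinesin FPKM they made 4.28%, 6.04% and 6.29% in the *Pfn1*-KO libraries, against 2.90% and 0.752% in the controls. Without *Kif3a* and *Kif21a* in the denominator the shares were 5.09%, 7.59% and 7.48% in the *Pfn1*-KO libraries, against 11.4% and 1.96% in the controls, and overlapped. Per 1000000 of nuclear protein-coding signal the mitotic sums were 62.2, 107 and 137 in the *Pfn1*-KO libraries, against 116 and 23.8 in the controls, and overlapped as well. All 11 were above 0 in every *Pfn1*-KO library, while 7 were above 0 in control N1 and 2 in control N3. *Pfn1*-KO N4 was the highest *Pfn1*-KO library for 8 of the 11, and also for 11 of 13 transport and 10 of 13 other kinesins, so its rank was not particular to the mitotic class.

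Most mitotic kinesins share a promoter feature. The CHR (cell cycle genes homology region) is an element of genes expressed late in the cell cycle, bound by complexes built on MuvB, and its core letters TTTGAA were searched on both strands in 300-base promoters from RefSeq on GRCm38.p6. Each promoter runs from 250 bases before to 50 bases after the annotated start, and 30 of the 37 genes had a promoter in the table. The letters were found in 9 of 10 mitotic promoters, 0 of 10 transport promoters and 2 of 10 other promoters (*Kif26b* and *Kif27*), against 17.9% of all 32851 promoters. They were also found in 16 of 23 promoters of mitotic partner genes, 0 of 17 of intraflagellar transport genes and 0 of 16 of light chain and adaptor genes. The mitotic promoter without a match was that of *Kif18a*. The CCAAT box, an element often found near a CHR, was searched as CCAAT on both strands, overlapped no CHR match, and was found in 6 of 10 mitotic, 3 of 10 transport and 4 of 10 other promoters, against 37.4% of all promoters. In 7 of the 9 genes the nearest CHR match began within 20 bases of the annotated start. The 30 bases around the nearest match are shown for these genes on the strand of the gene, with that match in capitals, so that the element can be seen in its setting; in the *Kif20b* window a further match follows it in lower case. A match in letters is a description and not a mapped binding site.
Kif4 (chrX:100626072-100626101, plus strand): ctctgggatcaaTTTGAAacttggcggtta
Kif11 (chr19:37376351-37376380, plus strand): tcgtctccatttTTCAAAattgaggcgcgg
Kif15 (chr9:122951050-122951079, plus strand): tggggcgccaaaTTCAAAtctgcggccatc
Kif18b (chr11:102925104-102925133, minus strand): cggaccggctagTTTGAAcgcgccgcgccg
Kif20b (chr19:34922353-34922382, plus strand): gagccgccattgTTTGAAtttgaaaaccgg
Kif22 (chr7:127042420-127042449, minus strand): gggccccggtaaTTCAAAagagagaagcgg
Kif23 (chr9:61946780-61946809, minus strand): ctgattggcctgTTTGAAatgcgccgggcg
Kif2c (chr4:117178858-117178887, minus strand): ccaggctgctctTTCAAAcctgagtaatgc
Kif14 (chr1:136467608-136467637, plus strand): ggaggtcctgtcTTTGAAgtctgcagtgtc

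Of the 7 mitotic kinesins tested, 4 were called higher as deposited (57.1%, against 70.1% of all genes tested). None was called lower by limma or by limma-voom or was lower at an unadjusted p under 0.05. Limma called 2.13% of all genes lower, a share at which a list of 7 may hold none. All 7 lay below the median of all genes tested, and their own median was 1.15, or 1.11 with the 3 genes at 0 in both controls set at the floor of 3 reads. With a pseudocount of 1, genes this low that are at 0 in both controls can hardly exceed that median. With 0.1, *Kif20a* and *Kif4* were 4.37 and 4.26, above the 3.79 of all genes, while *Kif22* at 3.71 and the other mitotic kinesins stayed below it. Over the 4 mitotic kinesins tested that were read in a control, the median was 0.64. After quantile normalisation none was called higher, all 7 were negative and *Kif23* was called lower (-1.81, limma adjusted p = 0.024), against 6.99% of all genes called higher and 12.3% called lower. *Kif4*, *Kif20a* and *Kif22* were at 0 in both controls and above 0 in every *Pfn1*-KO library, so their negative signs there do not show a fall. Without control N1 the 4 higher calls became 2.

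The 4 mitotic kinesins called higher were *Kif4*, *Kif22*, *Kif20a* and *Kif20b*, and the filter fixed the direction of *Kif4*, *Kif22* and *Kif20a*. *Kif4*, a chromokinesin that works with PRC1 at the spindle midzone, had 1.15, 1.83 and 2.78 FPKM in the *Pfn1*-KO libraries and was listed at 0 in both controls. *Kif22*, the chromokinesin that pushes chromosome arms away from the poles, had 0.980, 1.39 and 1.29 FPKM in the *Pfn1*-KO libraries and was listed at 0 in both controls. *Kif20a*, which moves the chromosomal passenger complex to the midzone, had 1.27, 2.73 and 2.21 FPKM in the *Pfn1*-KO libraries and was listed at 0 in both controls. The fitted log2 differences of *Kif4*, *Kif22* and *Kif20a* were 1.51, 1.15 and 1.59 (limma adjusted p of 0.0089, 0.0107 and 0.0068). Each turned negative after quantile normalisation, a sign that shows no fall for genes at 0 in both controls. *Kif22* also lost its call without control N1 (limma adjusted p = 0.0998) or N3 (limma adjusted p = 0.101).

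*Kif20b*, a motor of late cytokinesis and the most abundant mitotic kinesin by mean FPKM, had 2.89, 2.37 and 6.99 FPKM in *Pfn1*-KO N2, N3 and N4, against 0.515 and 1.11 FPKM in control N1 and N3. *Pfn1*-KO N4 stood well above the other libraries, and the groups did not overlap. *Kif20b* was called higher (log2 difference 1.40, SE 0.48, limma adjusted p = 0.037), but under only 6 of 15 alternatives. The call was lost without *Pfn1*-KO N2 or N4 (limma adjusted p of 0.0806 to 0.0896), with no filter (limma adjusted p = 0.053) and with a pseudocount of 5 (limma adjusted p = 0.059). It was also lost after median-ratio size factors (0.26, limma adjusted p = 0.659), after rescaling to nuclear protein-coding genes (1.10, limma adjusted p = 0.190) and without control N1 (1.16). After quantile normalisation the difference was -0.91. *Kif4*, *Kif20a* and *Kif22* overlap a gene on the opposite strand (*Pdzd11*, *Cdc23* and *Gm31749*), and the strand setting of the counting is not given in the sources used here.

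*Kif11*, *Kif15* and *Kif23* were not called. *Kif11*, also called Eg5, which slides antiparallel microtubules apart to keep the spindle bipolar, had 0.940, 2.61 and 1.91 FPKM in the *Pfn1*-KO libraries, against 0.735 and 0 FPKM in the controls (log2 difference 1.05, limma adjusted p = 0.056). *Kif15*, which can keep the spindle bipolar when Eg5 is weak, had 0.727, 0.555 and 1.48 FPKM in the *Pfn1*-KO libraries, against 1.58 and 0 FPKM in the controls. *Kif23*, the motor of centralspindlin in cytokinesis, had 1.85, 1.60 and 2.98 FPKM in the *Pfn1*-KO libraries, against 3.26 and 0.921 FPKM in the controls (log2 difference 0.11, limma adjusted p = 0.830). For each of *Kif15* and *Kif23* the *Pfn1*-KO values lay between the 2 controls, and without control N3 the fitted difference turned negative, at -0.45 and -0.46.

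The 4 untested mitotic kinesins were similarly low. The centromeric depolymerase gene *Kif2c* had 0.635, 0.912 and 1.07 FPKM in the *Pfn1*-KO libraries, against 0.048 and 0 FPKM in the controls. *Kif18b*, which shortens astral microtubules, had 0.557, 0.855 and 0.954 FPKM in the *Pfn1*-KO libraries and was listed at 0 in both controls. *Kif14*, which acts with citron kinase in cytokinesis, and *Kif18a*, which dampens chromosome movement at the metaphase plate, peaked in a control instead. *Kif14* had 0.359, 0.497 and 0.791 FPKM in the *Pfn1*-KO libraries, against 1.31 and 0 FPKM in the controls, and *Kif18a* had 0.475, 0.507 and 0.833 FPKM against 1.12 and 0 FPKM in the controls.

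Partners of the mitotic kinesins did not move as a block. Of 26 tested, 11 were called higher (42.3%, against 70.1% of all genes) and 3 lower (11.5%, against 2.13%), with a median log2 difference of 0.44, against 1.75 over all genes tested. After quantile normalisation none was called higher and 7 were called lower, against 6.99% and 12.3% of all genes, and the median of the partners was -1.30. Limma-voom called 1 partner lower. The 3 lower genes were *Cdca8* and *Incenp*, which encode borealin and the scaffold of the chromosomal passenger complex, and *Tpx2*, whose product activates Aurora A on the spindle. *Incenp* had 3.21, 2.96 and 5.58 FPKM in the *Pfn1*-KO libraries, against 14.9 and 28.5 FPKM in the controls (log2 difference -2.18, limma adjusted p = 0.0089). *Cdca8* had 0.836, 0.707 and 1.31 FPKM in the *Pfn1*-KO libraries, against 4.70 and 32.4 FPKM in the controls. *Birc5*, the survivin subunit of the same complex, had 1.63, 1.11 and 1.86 FPKM in the *Pfn1*-KO libraries and was listed at 0 in both controls, and was called higher as deposited (log2 difference 1.33), with -0.21 after quantile normalisation. *Birc5* was named after its values were seen, for being in the same complex. *Numa1*, which tethers dynein at the spindle poles, had 27.2, 13.2 and 37.9 FPKM in the *Pfn1*-KO libraries, against 1.795 and 0.249 FPKM in the controls (log2 difference 3.74, limma adjusted p = 0.0030).

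General markers of dividing cells were compared too, 4 of which (*Birc5*, *Bub1*, *Cenpf* and *Plk1*) are also in the list of partners. Of 10 tested, 2 were called higher (*Birc5* and *Ccnb2*), against 70.1% of all genes tested. None was called lower by limma, against 2.13% of all genes, or by limma-voom, and none was lower at an unadjusted p under 0.05. The median log2 difference of these markers was 0.58, against 1.75 over all genes tested. After quantile normalisation none was called higher and 3 were called lower, against 6.99% and 12.3% of all genes. Their sum was 31.8, 42.3 and 78.1 FPKM in *Pfn1*-KO N2, N3 and N4, against 39.7 and 29.1 FPKM in control N1 and N3, and these overlapped. *Mki67*, which encodes the proliferation antigen Ki-67, had 13.3, 10.1 and 43.0 FPKM in the *Pfn1*-KO libraries, against 7.51 and 3.35 FPKM in the controls, and was not called (log2 difference 1.65, limma adjusted p = 0.074). *Top2a*, the topoisomerase of dividing cells, named after its values were seen, lay the other way, at 4.79, 12.7 and 10.999 FPKM in the *Pfn1*-KO libraries, against 14.9 and 21.4 FPKM in the controls (log2 difference -0.94, limma adjusted p = 0.157, and -2.48 with limma adjusted p = 0.044 after quantile normalisation). The highest value of *Mki67* was in *Pfn1*-KO N4, the library in which *Kif20b* was highest too. Which cells of the pulldown carried these transcripts was not tested.

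Set against each other, mitotic and transport kinesins had no stable order. The median log2 difference was 1.15 over 7 mitotic and 1.496 over 9 transport kinesins tested, a gap of -0.35. This is close in size to the standard deviation of 0.304 that the gap between class medians of log2(FPKM + 1) had over the 3 *Pfn1*-KO libraries. The gap was positive at 0.57 after median-ratio size factors and 1.15 after rescaling to nuclear protein-coding genes, and 0.0019 without control N1, so the order of the classes rested on the scale and on a single control. No p is given, since genes are not replicates.

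**Figure D4:**
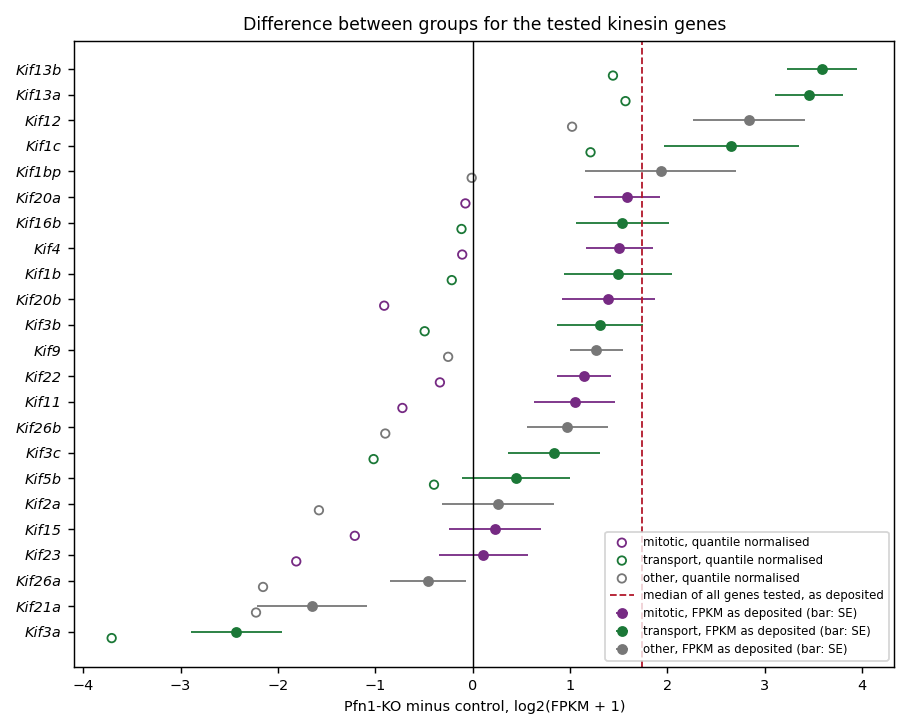
Difference between *Pfn1*-KO and control for the 23 tested kinesin genes on the log2(FPKM + 1) scale, as deposited (filled, bar is the standard error of the limma fit) and after quantile normalisation (open), with the median of all genes tested as a dashed line at 1.75. *Kif3a* and *Kif21a* are below 0 on both scales, *Kif12*, *Kif1c*, *Kif13a* and *Kif13b* are above 0 on both, and 8 genes called higher as deposited are below 0 after quantile normalisation. Among these 8, *Kif4*, *Kif9*, *Kif20a* and *Kif22* are at 0 in both controls, so their open points do not show a fall.

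Among the other kinesins, *Kif21a* was the most abundant kinesin of the controls and, with *Kif3a*, the second member called lower. Its protein acts at the cell cortex, where it slows microtubule growth, and is anchored there by KANK proteins near focal adhesions. *Kif21a* (ENSMUSG00000022629.17, chr15:90933276-91049948 of GRCm38, minus strand) had 36.3, 44.3 and 49.3 FPKM in the *Pfn1*-KO libraries, against 174 and 109 FPKM in control N1 and N3. The *Pfn1*-KO libraries were close together, and the controls were well above them but far from each other. In reads these were 5427, 7136 and 5804 in the *Pfn1*-KO libraries and 26659 and 16042 in the controls. *Kif21a* fell by 1.65 on the log2(FPKM + 1) scale in *Pfn1*-KO (SE 0.57, limma adjusted p = 0.036), which is -3.40 relative to the median of all genes. It was lower under 15 of 15 alternatives and called under 11. The call was lost without control N1 (-1.32, limma adjusted p = 0.103), without *Pfn1*-KO N2 (-1.54, limma adjusted p = 0.125), without *Pfn1*-KO N4 (-1.75, limma adjusted p = 0.101) and after rescaling to 1000000 (-0.93, limma adjusted p = 0.439). Within a library, *Kif21a* over *Kif5b* was 0.773, 0.886 and 0.795 in the *Pfn1*-KO libraries, against 5.99 and 2.15 in the controls, a ratio chosen after the values were seen. Its close relative *Kif21b* was low, at 0.430, 0.125 and 1.30 FPKM in the *Pfn1*-KO libraries and 0.876 and 0 FPKM in the controls.

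*Kif12*, a kinesin of epithelial cells that has been studied in kidney tubule and bile duct, gave the largest rise of this class. It had 30.4, 12.7 and 34.7 FPKM in *Pfn1*-KO N2, N3 and N4, against 1.86 and 3.19 FPKM in control N1 and N3. Every *Pfn1*-KO library was far above both controls, with N3 the lowest of the 3. The log2 difference was 2.84 (SE 0.58, limma adjusted p = 0.0060), 1.10 above the median of all genes, and it was positive under 15 of 15 alternatives and called under 12, the exceptions being median-ratio size factors, quantile normalisation and limma-voom (adjusted p of 0.0795 to 0.217). Proximal tubule markers were higher in the same libraries, but in another order, with their highest sum of 6185 FPKM in *Pfn1*-KO N3. Thick limb and distal tubule markers summed to 548, 299 and 402 FPKM in *Pfn1*-KO N2, N3 and N4, against 4.34 and 8.07 FPKM in the controls, with N3 lowest as for *Kif12*, and their part in the level of *Kif12* was not tested.

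*Kif9*, a motor of motile cilia, had 1.34, 1.36 and 1.55 FPKM in the *Pfn1*-KO libraries and was listed at 0 in both controls. It passed the filter through the *Pfn1*-KO libraries alone, so the filter fixed its direction. The log2 difference was 1.27 (limma adjusted p = 0.0071), and the call was lost without control N1 or N3. After quantile normalisation the difference was -0.25, a sign that shows no fall for a gene at 0 in both controls. *Kif2a*, a microtubule depolymerase of spindle and neuron, had 8.95, 6.26 and 10.5 FPKM in the *Pfn1*-KO libraries, against 3.65 and 12.3 FPKM in the controls, and was not called. *Kif1bp* had 6.16, 14.2 and 4.70 FPKM in the *Pfn1*-KO libraries, against 3.98 and 0 FPKM in the controls, and was not called either (limma adjusted p = 0.059). The atypical kinesins *Kif26a* and *Kif26b*, whose motor domains lack ATPase activity, overlapped between groups or came close to it. *Kif26a* had 0.832, 1.02 and 0.684 FPKM in the *Pfn1*-KO libraries, against 0.768 and 2.62 FPKM in the controls, and *Kif26b* had 1.63, 1.75 and 2.38 FPKM against 0 and 1.18 FPKM in the controls. The remaining members, *Kif6*, *Kif7*, *Kif19a*, *Kif24* and *Kif27*, lay between 0.040 and 1.77 FPKM in the *Pfn1*-KO libraries. Of these, *Kif7*, which acts at the ciliary tip in Hedgehog signalling, was the only gene above 1 FPKM in a control, at 0.472, 0.772 and 0.516 FPKM in the *Pfn1*-KO libraries and 0.018 and 1.45 FPKM in control N1 and N3, and it overlaps *Ticrr* on the other strand.

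**Figure D5:**
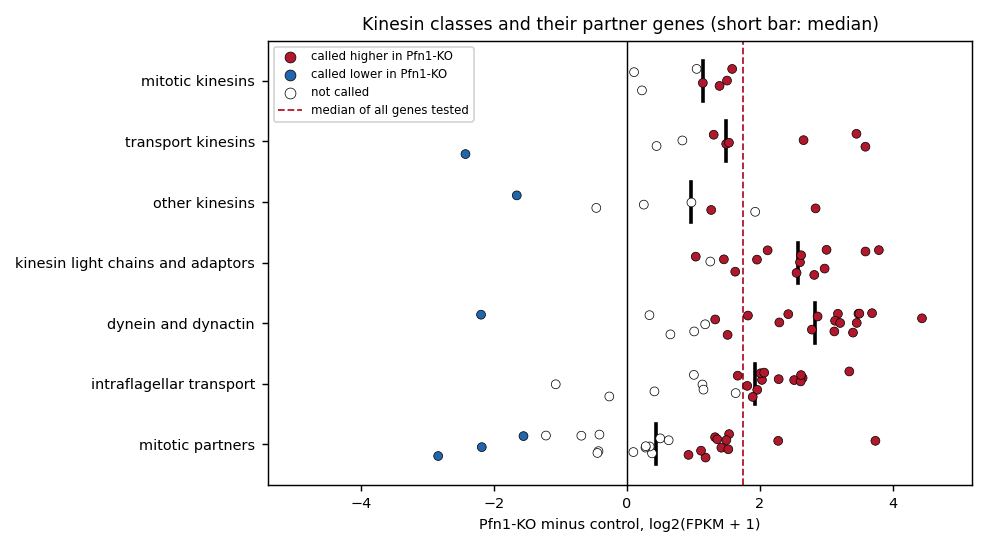
Difference between *Pfn1*-KO and control on the log2(FPKM + 1) scale for each tested gene of the kinesin classes and of 4 lists of partner genes, coloured by the limma call, with the list's median as a short bar and the median of all genes tested as a dashed line. The medians are 1.15, 1.496 and 0.97 for mitotic, transport and other kinesins, and 2.58, 2.83, 1.93 and 0.44 for light chains and adaptors, dynein and dynactin, intraflagellar transport and mitotic partners; after quantile normalisation the medians of the kinesin classes, of intraflagellar transport and of mitotic partners are below 0.

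The controls held kinesin reads in an all-or-none way that the *Pfn1*-KO libraries did not. Of 35 kinesin genes with whole reads known, 20 had at least 100 reads in a control, and 8 of those 20 (40.0%) had 0 reads in the other control. The 8 were *Kif11*, *Kif14*, *Kif15*, *Kif18a*, *Kif1bp* and *Kif21b*, read in control N1 only, and *Kif3c* and *Kif26b*, read in control N3 only. *Kif15*, for example, had 185, 152 and 297 reads in the *Pfn1*-KO libraries, against 412 and 0 reads in control N1 and N3. No kinesin had 100 reads in a *Pfn1*-KO library and 0 in another. The share was like that of all protein-coding genes, of which 2390 of 6352 (37.6%) with 100 reads in a control had 0 in the other. At 0 in both controls were 13 of the 37 kinesins, against 42.6% of protein-coding genes.

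The called-lower kinesins also share a feature of their coding sequence with other genes called lower. Over 11843 protein-coding genes tested, the highest share of purines (A or G) in any 50-base window of the coding sequence had a median of 0.74, and over the 255 called lower it had a median of 0.88. *Kif3a* and *Kif21a* each reached 0.90, or 45 purines in 50 bases, a share above that of 95.8% of the tested genes. The feature did not go with the direction in every kinesin. Among kinesins not tested, *Kif1a* reached 1 and *Kif7* reached 0.98. *Kif5b*, not called, and *Kif16b*, called higher as deposited, each reached 0.86. *Kif26a*, called lower after quantile normalisation, reached 0.68. *Kif3b*, called higher as deposited, reached 0.94 with 47 purines, and over the 23 tested members Pearson's r between this share and the log2 difference was -0.23, given as a description over genes that share their libraries. The windows of *Kif3a*, *Kif21a* and *Kif3b* are shown on the coding strand so that the stretches can be compared, with the longest unbroken run of purines in capitals. That of *Kif3a* lies in exon 9 of 19 (chr11:53586882-53586930 of GRCm38) with its last base at chr11:53588689-53588689 in exon 10, that of *Kif21a* in exon 14 of 37 (chr15:90971706-90971755), and that of *Kif3b* in exon 2 of 9 (chr2:153317448-153317497). The sequences come from GENCODE vM21 transcripts.
Kif3a: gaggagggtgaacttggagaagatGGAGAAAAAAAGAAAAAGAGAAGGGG
Kif21a: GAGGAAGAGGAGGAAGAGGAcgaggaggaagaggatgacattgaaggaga
Kif3b: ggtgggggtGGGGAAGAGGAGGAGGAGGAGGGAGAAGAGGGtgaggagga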

How the data were processed

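RNA from ribosome pulldowns of 3 *Pfn1*-KO and 2 control samples was sequenced by the authors. Their tools were fastp 0.20 for trimming, STAR 2.7.9 for alignment against GRCm38.p6, and featureCounts 2.0.0 for gene counts. The deposited table holds FPKM per gene, made by the authors; the methods name TPM, but column sums differ between libraries. FPKM times gene length and library size gave whole reads, within 0.02 of a read, for 100% of the 20414 genes whose ID and version matched GENCODE vM21, and this gave the library sizes. *Kif1b* and *Kif13a* matched without version and have no reads here. In a 2-kilobase gene, 1 read gave 0.0201 to 0.0275 FPKM.

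Values were tested on log2(FPKM + 1), pseudocount 1, with limma 3.58.1 in R 4.3.3 (trended empirical Bayes, two-sided, Benjamini-Hochberg). The fit was also run on simulated data, which held no shift of most genes between groups. Every kinesin is accounted for. Those called and the most abundant of each class have their test, and up to 4 genes of each partner list were named by size of change or level. Members and lists were chosen with earlier results of these data known, so no list is independent evidence. Settings tried were 2 other filters, 2 pseudocounts, 4 rescalings, array weights, each library left out and limma-voom on the recovered reads. The value of 1 marker gene is not reported here.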

Additional observations from a re-analysis of the deposited data

How the results depend on the processing

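Over 15 alternative settings, *Kif3a* and *Kif21a* stayed lower and *Kif1c* and *Kif12* stayed higher in 15, *Kif13b* in 14 of 14 and *Kif13a* in 13 of 13. *Kif13a* and *Kif13b* were at or near 0 in both controls and the filter fixed their direction, so their unchanged sign is a description only. The deposited scale gave 12 kinesins higher and 2 lower (mitotic 4 and 0, transport 6 and 1), 10251 and 312 genes in all, and a mitotic minus transport gap of -0.35. The causes below were not tested.

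Keeping only genes above 0 in every sample, which removes genes at 0 in a control, gave 2440 genes higher, 6 kinesins higher and 1 mitotic kinesin higher. The gap was 0.027 with no filter, 0.96 with a pseudocount of 0.1 and -0.73 with a pseudocount of 5. Median-ratio size factors gave 904 genes lower, 6 kinesins higher, 2 transport kinesins higher and a gap of 0.57, and turned *Kif5b* (-1.35), *Kif3c* (-0.057), *Kif2a* (-1.37), *Kif3b* (-0.36), *Kif23* (-1.09), *Kif15* (-0.40), *Kif16b* (-0.16) and *Kif1b* (-0.17) negative. Quantile normalisation gave 1023 genes higher and 1806 lower, 1 kinesin higher (*Kif13a*) and 4 lower (*Kif3a*, *Kif21a*, *Kif23* and *Kif26a*), with 0 mitotic kinesins higher, 1 mitotic kinesin lower and 1 transport kinesin higher. It turned *Kif20a* (-0.074), *Kif5b* (-0.40), *Kif11* (-0.72), *Kif3c* (-1.02), *Kif2a* (-1.58), *Kif20b* (-0.91), *Kif26b* (-0.90), *Kif3b* (-0.49), *Kif22* (-0.34), *Kif23* (-1.81), *Kif9* (-0.25), *Kif4* (-0.11), *Kif15* (-1.21), *Kif1bp* (-0.0094), *Kif16b* (-0.11) and *Kif1b* (-0.21) negative. Of these, *Kif20a*, *Kif22*, *Kif9* and *Kif4* were at 0 in both controls, so their negative signs do not show a fall. Rescaling to 1000000 gave 98 genes, 0 kinesins and 0 transport kinesins lower. Rescaling to nuclear protein-coding genes gave 584 genes lower, 7 kinesins higher, 2 transport kinesins higher and a gap of 1.15, and turned *Kif5b* (-0.62), *Kif2a* (-0.75) and *Kif23* (-0.79). Limma-voom on the recovered reads, which lack *Kif13a* and *Kif1b*, gave 206 genes lower, 7 kinesins higher, 3 transport kinesins higher and a gap of 3.45.

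Leaving out each library in turn gave 6446 to 10698 genes higher and 136 to 475 lower, 7 to 11 kinesins higher and 1 to 2 lower, 2 to 4 mitotic and 2 to 6 transport kinesins higher, and a gap of -0.70 to 0.0019. A group left with a lone control was assumed to vary like the other. Signs turned for *Kif2a* without control N1 (range over the 5 fits -0.50 to 1.02), for *Kif26a* (-0.97 to 0.058) and *Kif15* (-0.45 to 0.91) without control N3, and for *Kif23* without control N3 or *Pfn1*-KO N4 (-0.46 to 0.68). No paired analysis was possible because the columns of the table do not carry the labels' replicate numbers and share only N3.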

Other observations

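Kinesins whose symbols do not follow the naming rule gave values of the same kind. *Cenpe*, the kinetochore kinesin that brings chromosomes to the metaphase plate, had 2.63, 4.55 and 7.71 FPKM in *Pfn1*-KO N2, N3 and N4, against 0 and 2.12 FPKM in control N1 and N3 (log2 difference 1.66, limma adjusted p = 0.046). *Kifc3*, a minus-end-directed kinesin of epithelial junctions, had 11.8, 6.24 and 11.3 FPKM in the *Pfn1*-KO libraries, against 1.44 and 0 FPKM in the controls (log2 difference 2.74, limma adjusted p = 0.0050). *Kifc1*, a minus-end-directed kinesin that gathers spindle poles, had 0.659, 1.14 and 1.34 FPKM in the *Pfn1*-KO libraries, against 3.905 and 0 FPKM in the controls, and was not called. Of the 4 such genes tested, 3 were called higher as deposited (75.0%, close to the 70.1% of all genes). None was called higher or lower after quantile normalisation, against 6.99% and 12.3% of all genes, and the median of the 4 was then -0.32.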
